A study of Mus musculus with 55 samples.

Results

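The cytosolic ribosomal protein genes are the genes whose products, with the ribosomal RNAs, build the large (Rpl) and small (Rps) subunits of the ribosome. They were chosen by gene symbol alone, as Rpl or Rps followed by a number and at most 1 letter, with the stalk genes Rplp0, Rplp1 and Rplp2 and the small subunit gene Rpsa. The rule found 79 genes among the 15479 of the PRMK and PRM table, 47 of the large and 32 of the small subunit. It found 82 among the 51912 of the sgMeis2 and sgScramble table, 50 of the large and 32 of the small subunit. All 79 passed the filter on low counts in the first table and 78 of 82 passed in the second, where Rpl3l, Rpl10l, Rpl39l and Rps4l did not.

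Ribosomal proteins are needed in near equal amounts, and cells that grow quickly spend much of their messenger RNA on them. Their mRNAs typically begin with a cytosine followed by an unbroken run of pyrimidines, the terminal oligopyrimidine (TOP) tract, through which the mTORC1 kinase and the RNA-binding protein LARP1 control translation. Myc is a known activator of ribosomal protein genes in many tissues.

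The series held 55 mouse samples of small cell lung cancer grown from edited lung organoids that were injected into the left lung lobe of recipient mice. The RNA results here rest on 12 of these samples, lung tumour libraries with 3 in each of 4 groups; the other RNA samples of the series were not used here. Chromatin samples called PRMK list a guide against Kmt2c, an H3K4 methyltransferase gene, but the PRMK RNA libraries list sgTrp53, sgRb1 and MSCV-Myc-IRES-Luc2 only. The PRM libraries list the same plasmids. The sgMeis2 libraries carry sgTrp53, sgRb1, sgKmt2c, MSCV-Myc-IRES-Luc2 and sgMeis2, and the sgScramble libraries carry sgScramble in place of sgMeis2, so both groups of that comparison share the Kmt2c guide and Myc. Guide-edited organoids can hold cells with unequal edits. Whether the replicates of a group are separate animals is not given in the labels, so p-values measure only the spread between these samples, which may be technical. The labels of the PRM libraries alone name a strand-specific preparation kit, so preparation and genotype cannot be told apart in PRMK versus PRM.

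Library totals were 12013253 to 24389041 counts. The lowest was that of PRM library 6, and the next lowest was 18447615 counts in PRM library 4. Levels are CPM, the counts of a gene relative to the library total scaled by TMM, and they compare a gene between libraries, not genes with each other, since no gene lengths were used. Kmt2c had 85.1, 84.4 and 105 CPM in PRMK libraries 1 to 3, against 113, 187 and 67.6 CPM in PRM libraries 4 to 6. The ranges thus overlapped, and a guide need not lower the mRNA of its target. Meis2 had 219, 224 and 137 CPM in sgMeis2 libraries 1 to 3, against 259, 227 and 233 CPM in sgScramble libraries 1 to 3, so sgMeis2 library 3 held the least. PRM library 6 stood apart. The 8 of 9 listed neuroendocrine markers found in that table summed to 3520 to 5610 CPM in PRMK and to 3060, 5370 and 124 CPM in PRM, the last value in PRM library 6, where none was at 0. The neuroendocrine markers summed to 2790 to 3100 CPM in sgMeis2 libraries and 2930 to 3000 CPM in sgScramble libraries. Many results of the family and its members are therefore also given without PRM library 6. Fold changes of the subunits, of groups by role and of genes outside the family include that library.

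The sequence around the annotated start is shown for the 4 genes with the lowest PRMK over PRM fold change (Rpl39, Rpl35a, Rpl26 and Rps2), for the 3 with a RefSeq start among the 4 highest (Rpl9, Rpl31 and Rpl35) and for the stalk gene Rplp0. Sequences are from RefSeq on GRCm38.p6, 5′ to 3′ on the strand of the gene, and capitals mark the longest pyrimidine run that opens with C between 20 bases before and 40 bases after the annotated start.
Rpl39, chrX:37085224-37085253, minus strand: gagtcatccatCCCCCCCTaagctccgcct
Rpl35a, chr16:33056469-33056498, plus strand: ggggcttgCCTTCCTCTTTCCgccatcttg
Rpl26, chr11:68901580-68901609, plus strand: cgtgtagttCTCTTTCCTTTTgcggccatc
Rps2, chr17:24720079-24720108, plus strand: ctataaattgtCCCTTCCgcggcgcctccc
Rpl9, chr5:65391382-65391411, minus strand: cgaaagacgttCTCTCTTTgccccatctac
Rpl31, chr1:39367825-39367854, plus strand: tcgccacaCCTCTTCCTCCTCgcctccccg
Rpl35, chr2:39005115-39005144, minus strand: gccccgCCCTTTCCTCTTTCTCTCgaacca
Rplp0, chr5:115559468-115559497, plus strand: gaccgcctggttCTCCTataaaaggcacac
The runs were 8 bases in Rpl39, 13 in Rpl35a, 12 in Rpl26 and 7 in Rps2, and 8 in Rpl9, 13 in Rpl31, 18 in Rpl35 and 5 in Rplp0. Runs of 8 or more thus lay at genes of both ends of the fold change order. Counted from the annotated start, the first base of the run lay at -20 in Rpl39, 24 in Rpl35a, 23 in Rpl26 and 27 in Rps2. It lay at 31 in Rpl9, -18 in Rpl31, -7 in Rpl35 and 13 in Rplp0. None of these runs opened at the annotated start itself, so they are not shown to be TOP tracts. RefSeq entries were matched for 61 members, with 73 starts. A run of 8 or more lay in that window at 42 of the 73 starts (57.5%), against 17.2% of all 32851 starts and 17.0% of the starts of other genes that passed the filter. The longest run had a median of 8 bases at member starts and 5 bases over all starts. The 39 members with a run of 8 or more had a median log2 fold change of -1.03 in PRMK over PRM, and the 19 with shorter runs had -1.002, and the ranges of these members overlapped.

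In order to ask whether the family differs between tumours named for Kmt2c editing and PRM tumours, the share of all gene counts that fell on its members was compared. The share was 1.70%, 1.93% and 1.75% in PRMK libraries 1 to 3, against 2.55%, 2.38% and 5.18% in PRM libraries 4 to 6. All 3 PRMK libraries were below all 3 PRM libraries, and PRM library 6 was more than 2 percentage points above any other. The mean share was 1.58 percentage points lower in PRMK, and 0.67 points lower without PRM library 6. In bulk tumour RNA, fewer cells of a type and less RNA per cell cannot be told apart. The mitochondrially encoded genes took 2.29%, 2.42% and 2.40% of counts in PRMK libraries, against 2.37%, 2.62% and 5.35% in PRM libraries, so the library with the highest ribosomal protein share also had the highest mitochondrial share. The 4 epithelial markers summed to 1720, 517 and 2860 CPM in PRMK, against 159, 48.6 and 2810 CPM in PRM. The 3 of 5 immune markers in the table summed to 375, 447 and 558 CPM in PRMK, against 441, 3.36 and 86.1 CPM in PRM, and 1 of them was at 0 in PRM libraries 5 and 6. The 4 fibroblast markers summed to 70.5, 215 and 53.5 CPM in PRMK, against 241, 2.58 and 48.6 CPM in PRM, with Dcn at 0 in PRM library 5. Each of these sums overlapped between the groups. The 2 of 3 endothelial markers in the table, Kdr and Pecam1, did not overlap: they summed to 3.90, 2.66 and 4.04 CPM in PRMK, against 1.52, 0.504 and 0.178 CPM in PRM, so both groups were near 0. The part of preparation, of mitochondrial RNA and of these marker levels in the result was not tested.

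**Figure D1:**
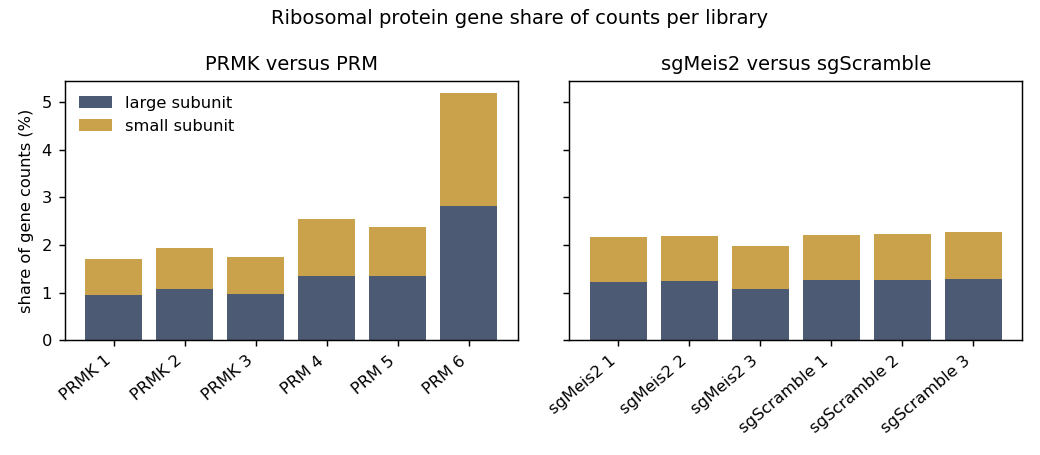
Share of all gene counts, in percent, that fell on ribosomal protein genes in each RNA library, as stacked bars for the large and the small subunit. PRMK libraries sit at 1.70% to 1.93% and PRM libraries at 2.38% to 5.18%, while sgMeis2 and sgScramble libraries lie between 1.98% and 2.27%.

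The balance between the subunits moved less than the share. The ratio of large to small subunit counts was 1.27, 1.23 and 1.23 in PRMK libraries, against 1.11, 1.29 and 1.18 in PRM libraries, and the groups overlapped. The median log2 fold change was -1.02 over the 47 large subunit genes, all below 0, and -0.97 over the 32 small subunit genes, of which 31 were below 0.

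Across the family the median log2 fold change was -1.002 in PRMK over PRM, against -0.02 over all 13914 genes tested. The fold change was below 0 for 78 of 79 members (98.7%), against 51.4% of all genes tested. It was below 0 for 76 of 79 and the median was -0.64 without PRM library 6, where Rps4l (3.73), Rpl41 (0.81) and Rps26 (0.41) lay above 0. These 3 genes are named after their values were seen. The share of all genes below 0 without PRM library 6 was not counted. With Benjamini-Hochberg adjustment over all genes, the edgeR quasi-likelihood test called 0 of 79 members at an adjusted p under 0.05, as it called 0% of all genes, and its lowest adjusted p among members was 0.19. At an unadjusted p under 0.05 edgeR gave 51 members lower (64.6%, against 10.1% of all genes) and 0 higher (against 7.03% of all genes). DESeq2 called 23 members lower (29.1%, against 4.86% of all genes) and 0 higher (against 3.90%). Those 23 comprised 14 large and 9 small subunit genes. The authors' deposited table gave 10 members an adjusted p under 0.05, all lower, and DESeq2 also called all 10 here. The share of all genes with such a value in the authors' table was not counted. The DESeq2 count fell when any PRMK library was left out and rose when any PRM library was. It was 1, 8 and 3 without PRMK libraries 1, 2 and 3 (1.27%, 10.1% and 3.80%, against 1.54%, 3.47% and 2.52% of all genes in either direction). It was 50, 40 and 43 without PRM libraries 4, 5 and 6 (63.3%, 50.6% and 54.4%, against 28.5%, 10.1% and 15.1% of all genes), so the calls over all genes moved the same way.

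The groups did not overlap for 55 members that were lower in all PRMK libraries (69.6%, against 14.6% of all genes tested), and for 0 members that were higher (against 15.1%). Without PRM library 6 the counts were 57 lower (72.2%, against 22.3% of all genes tested) and 3 higher (against 22.8%). Spread differed between the groups. The coefficient of variation over 3 libraries had a median of 10.1% over members in PRMK and 43.2% in PRM, and was under 0.2 for 74 of 79 members in PRMK and for 5 of 79 in PRM. Leaving out PRM library 4, edgeR called 6 of 79 members, all lower (7.59%, against 5.59% of all genes called in either direction), a share near that of all genes. It called 0 members and 0% of all genes when any other single library was left out.

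**Figure D2:**
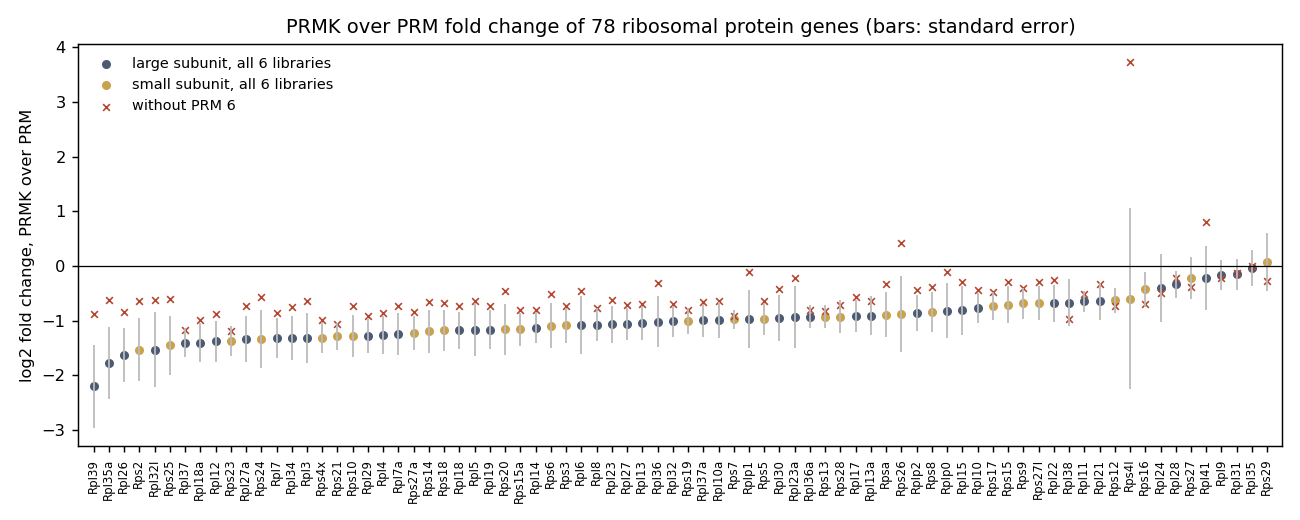
Log2 fold change of 78 ribosomal protein genes in PRMK over PRM, with bars for the standard error, and crosses for the value without PRM library 6. Points run from -2.20 (Rpl39) to 0.08 (Rps29), and most crosses lie nearer to 0 than their points; the cross of Rps4l lies at 3.73.

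Among the proteins around the exit of the peptide tunnel, Rpl39, a small basic protein that lines the tunnel, had 34.4, 41.1 and 42.6 CPM in PRMK libraries 1 to 3, against 93.0, 52.0 and 398 CPM in PRM libraries 4 to 6. PRM library 6 was several times above the other 2 PRM libraries, and the groups did not overlap. Its log2 fold change was -2.20 (SE 0.76), the lowest of the family, and edgeR gave it an adjusted p of 0.244, where DESeq2 gave 0.0477. Without PRM library 6 it was -0.88, and Rps23, a small subunit protein at the decoding site, was then lowest at -1.19. Rpl26, which lies beside the tunnel exit, was at 129, 137 and 136 CPM in PRMK, against 233, 247 and 760 CPM in PRM. Its log2 fold change was -1.63 (SE 0.50; edgeR adjusted p 0.226, DESeq2 adjusted p 0.0423), and -0.84 without PRM library 6. Rpl31 and Rpl35, which also lie around the exit, did not separate the groups. Rpl31 had 271, 302 and 272 CPM in PRMK, against 412, 204 and 321 CPM in PRM, and its log2 fold change was -0.15 (SE 0.28). Rpl35 was at 9.69, 12.5 and 10.3 CPM in PRMK, against 12.3, 9.53 and 11.5 CPM in PRM (log2 fold change -0.03, SE 0.33). For both genes the ranges of the groups overlapped.

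The stalk proteins Rplp0, Rplp1 and Rplp2 bind translation factors to the large subunit. Rplp0 was at 1255, 1519 and 1272 CPM in PRMK, against 1139, 1795 and 4194 CPM in PRM. PRM library 4 lay below all PRMK libraries, so the groups overlapped, and the log2 fold change of -0.82 (SE 0.50) missed the threshold in edgeR (adjusted p 0.439). Rplp1 was at 305, 359 and 344 CPM in PRMK, against 398, 334 and 1243 CPM in PRM (log2 fold change -0.97, SE 0.53). Rplp2 was at 215, 215 and 189 CPM in PRMK, against 302, 260 and 564 CPM in PRM (log2 fold change -0.86, SE 0.33), with no overlap between the groups. The median of the 3 was -0.86. Without PRM library 6 the log2 fold change was -0.12 for Rplp0, -0.12 for Rplp1 and -0.44 for Rplp2, so the larger values rest on that library.

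Rpl5 and Rpl11 carry the 5S ribosomal RNA into the large subunit and, when free, bind the ubiquitin ligase MDM2. Rpl5 was at 131, 161 and 150 CPM in PRMK, against 131, 330 and 528 CPM in PRM. PRM library 4 lay at the lowest PRMK level and the other 2 PRM libraries well above, and the log2 fold change was -1.16 (SE 0.49; edgeR adjusted p 0.296), and -0.64 without PRM library 6. Rpl11 was at 158, 196 and 174 CPM in PRMK, against 251, 254 and 323 CPM in PRM, without overlap, and its log2 fold change was -0.65 (SE 0.20; edgeR adjusted p 0.222, DESeq2 adjusted p 0.0549).

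Other large subunit genes also had fold changes below 0. Rpl35a, whose loss in humans is a cause of Diamond-Blackfan anaemia, was at 54.0, 61.3 and 62.6 CPM in PRMK, against 100.1, 82.0 and 424 CPM in PRM. PRM library 6 again held several times the level of the other PRM libraries, and the log2 fold change was -1.77 (SE 0.66; edgeR adjusted p 0.263, DESeq2 adjusted p 0.0857), and -0.61 without PRM library 6. Rpl22, which is dispensable for translation but needed for T cell development in mice, was at 260, 340 and 293 CPM in PRMK, against 375, 337 and 717 CPM in PRM. These groups overlapped, with a log2 fold change of -0.68 (SE 0.34). Rpl10, which takes part in the last step of large subunit maturation, was at 173, 199 and 180 CPM in PRMK, against 255, 248 and 442 CPM in PRM, without overlap (log2 fold change -0.77, SE 0.28). Rpl9, a protein of the large subunit, was at 89.5, 105 and 94.8 CPM in PRMK, against 77.8, 147 and 99.6 CPM in PRM, and did not separate the groups (log2 fold change -0.16, SE 0.27). Without PRM library 6 the log2 fold change was -0.26 for Rpl22 and -0.44 for Rpl10.

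In the small subunit, Rps2, which lies at the entry of the mRNA channel, was at 679, 824 and 718 CPM in PRMK, against 974, 1326 and 4129 CPM in PRM. Its log2 fold change was -1.53 (SE 0.58; edgeR adjusted p 0.265, DESeq2 adjusted p 0.0908), with no overlap. Rps6, the substrate of the S6 kinases below mTORC1, was at 278, 352 and 294 CPM in PRMK, against 464, 417 and 1085 CPM in PRM, without overlap (log2 fold change -1.09, SE 0.41). Rpsa, a small subunit protein near the mRNA exit that also acts as a laminin receptor, was at 552, 689 and 699.5 CPM in PRMK, against 860, 775 and 1966 CPM in PRM, without overlap (log2 fold change -0.89, SE 0.41). For Rps2, Rps6 and Rpsa, PRM library 6 lay far above the other 2 PRM libraries, and without it the log2 fold change was -0.63 for Rps2, -0.51 for Rps6 and -0.33 for Rpsa.

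Other small subunit genes separated the groups with less spread in PRM. Rps7, which has a part in small subunit processing, was at 88.4, 107 and 90.6 CPM in PRMK, against 184, 175 and 202 CPM in PRM. All 3 PRM libraries were near each other, and its log2 fold change of -0.97 (SE 0.17) passed in DESeq2 (adjusted p 5.96e-05) and missed in edgeR (adjusted p 0.19). Rps4x, an X-linked small subunit gene, was at 288, 341 and 297 CPM in PRMK, against 609, 624 and 1065 CPM in PRM (log2 fold change -1.31, SE 0.29; edgeR adjusted p 0.19, DESeq2 adjusted p 0.00362). Rps19, the gene most often mutated in human Diamond-Blackfan anaemia, was at 203, 255 and 209 CPM in PRMK, against 427, 351 and 558 CPM in PRM (log2 fold change -1.002, SE 0.24; edgeR adjusted p 0.193, DESeq2 adjusted p 0.0117). Rps27a, made as a fusion with ubiquitin, was at 47.1, 53.4 and 48.5 CPM in PRMK, against 82.2, 97.3 and 169 CPM in PRM (log2 fold change -1.22, SE 0.31; edgeR adjusted p 0.198, DESeq2 adjusted p 0.0205). None of these 4 genes overlapped between the groups. Without PRM library 6 the values were -0.91 for Rps7, -0.99 for Rps4x, -0.80 for Rps19 and -0.85 for Rps27a. Rps7 was named after its values were seen, as the member with the lowest edgeR p.

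Rps29, a zinc-binding small subunit protein, was the single member with a fold change above 0. It was at 99.9, 108 and 102 CPM in PRMK, against 182, 68.7 and 41.8 CPM in PRM, so the PRM libraries lay on both sides of PRMK, and its log2 fold change was 0.08 (SE 0.53). It was 0.86 without PRM library 4, -0.12 without PRM library 5 and -0.28 without PRM library 6. Rps29 and the small subunit genes Rps16 and Rps27 were lower in PRM library 6 than in PRM library 4, against the direction of most members. Rpl38, which in mice is needed for translation of Homeobox mRNAs, had 8.97, 8.35 and 8.95 CPM in PRMK, against 18.1, 16.2 and 7.48 CPM in PRM, so PRM library 6 lay below every PRMK library.

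Paralogs with restricted expression were mostly near 0. Rps27l, a paralog of Rps27, was at 71.8 ± 10.3 CPM in PRMK and 115 ± 46.7 CPM in PRM (SD, n = 3 each), and its log2 difference was -0.68 (SE 0.32) with all libraries and -0.29 leaving out PRM library 6. Rps4l, a paralog of Rps4x, had 245, 50 and 328 counts in PRMK libraries, against 20, 4 and 421 counts in PRM libraries, so its level varied in both groups and reads shared with its near copy may be counted under it. In the sgMeis2 and sgScramble table Rps4l had 0, 1 and 2 counts in sgMeis2, against 0, 0 and 0 counts in sgScramble. Rpl3l, a striated muscle paralog of Rpl3, had 3, 0 and 5 counts in sgMeis2, against 1, 2 and 7 counts in sgScramble. The testis paralogs were near absent there too: Rpl10l had 1, 0 and 0 counts in sgMeis2 and 0 in each sgScramble library, and Rpl39l had 0 in each. A count of 0 allows up to 3 counts per library, by counting error only.

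Relative to the other members, the levels that varied most over the 6 PRMK and PRM libraries were those of Rps4l (SD 2.07 of the log2 level relative to the family median), Rps29 (1.22) and Rpl38 (0.83). Seen by library, 68 of 76 members with a mean of at least 10 CPM were highest in PRM library 6, against 25.6% of 10027 other genes. In that library 61 members (80.3%) deviated by 1 or more on the log2 scale from the mean of the other 5 libraries, against 29.0% of the other genes. The lowest value lay in PRMK library 1 for 40 members (against 10.5% of other genes) and in PRMK library 3 for 21 (against 14.7%). The median deviation of members was -0.68, -0.40 and -0.62 in PRMK libraries 1 to 3, against 0.20, 0.19 and 1.31 in PRM libraries 4 to 6, on the log2 scale. Other genes had medians of -0.00 to 0.02 in PRMK and 0.00 to 0.11 in PRM.

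**Figure D3:**
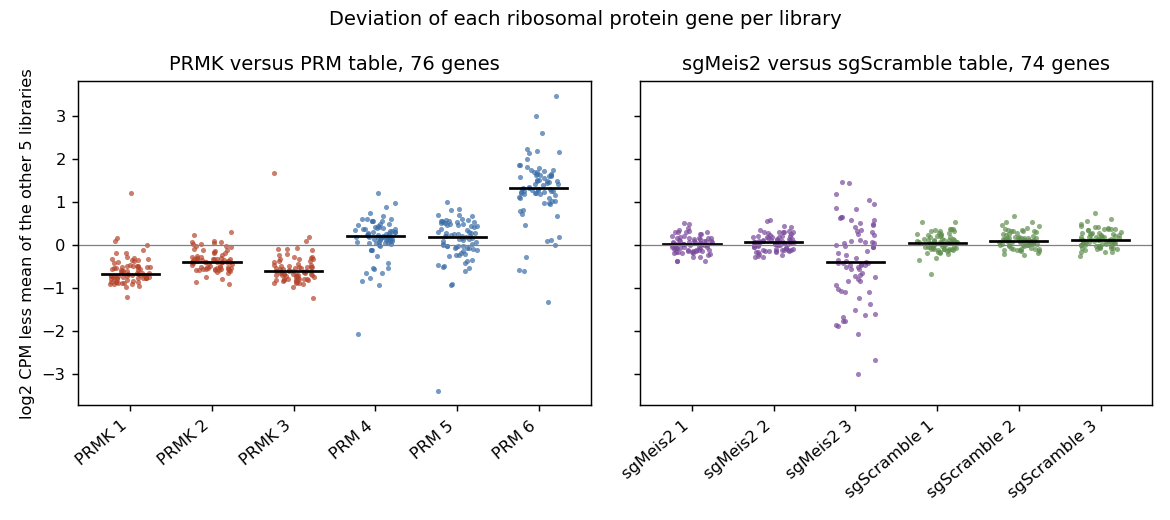
Deviation of each ribosomal protein gene in each library, as log2 CPM less the mean of the other 5 libraries of its table, with a black line at the library median; left the PRMK and PRM table, right the sgMeis2 and sgScramble table. PRM library 6 has a median of 1.31, and sgMeis2 library 3 has the widest spread on the right, from -2.997 to 1.46.

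Members on chromosomes that stood apart in a PRM library lay on the same side of 0 as the other genes there. In PRM library 4, the median deviation of 650 other genes of chromosome 5 was -0.88, with 91.4% below 0. The 5 members on chromosome 5 were Rpl6 (-0.94), Rpl5 (-0.77), Rplp0 (-0.65), Rpl21 (-0.57) and Rpl9 (-0.44). Their median was -0.65, against 0.21 for the 71 members elsewhere. On chromosome 14 in the same library, 342 other genes had a median deviation of -0.73, and Rpl15 (-0.65) and Rps24 (-0.54) lay below 0. In PRM library 5, 362 other genes of chromosome 13 had a median deviation of 0.73, and Rps23, the single member there, had 1.00, the highest of 76 members. Each of these deviations is a value of 1 library.

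Lists of related genes were compared with the family in the same fit. Of 14 other TOP mRNAs, which encode translation factors and RNA-binding proteins, 14 had a fold change below 0, with a median of -0.95, and edgeR called 0 and DESeq2 5. Eef1g, a subunit of the translation elongation factor, was at 123, 141 and 124 CPM in PRMK, against 267, 423 and 459 CPM in PRM (log2 fold change -1.57, SE 0.26; edgeR adjusted p 0.19, DESeq2 adjusted p 3.81e-05). Of 14 genes of mTORC1 and TOP regulation, 7 were below 0, with a median of -0.01. Of 77 mitochondrial ribosomal protein genes tested, 68 were below 0, with a median of -0.41, and 52 of 79 respiratory chain genes were below 0, with a median of -0.11. Ribosomal genes that the symbol rule leaves out went the same way, 7 of 7 below 0 with a median of -0.86. Among them Rack1, a scaffold protein on the small subunit, was at 492, 582 and 484 CPM in PRMK, against 881, 1154 and 1849 CPM in PRM (log2 fold change -1.32, SE 0.33), and Rps3a1 had a log2 fold change of -1.14 (SE 0.24). Myc was at 273, 312 and 205 CPM in PRMK, against 1140, 2306 and 2059 CPM in PRM, a log2 fold change of -2.80, where edgeR gave an adjusted p of 0.158 and DESeq2 1.57e-10. The part of Myc in the members' difference was not tested.

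Among the other ribosomal genes outside the symbol rule, Rpl7l1 had a log2 fold change of -0.92, Rpl36al -0.85, Rpl22l1 -0.63 and Fau (a ubiquitin-like fusion of the small subunit) -0.59 in PRMK over PRM. DESeq2 called Rack1, Rps3a1 and Rpl7l1 of this list.

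Within the family, groups by role gave similar medians. They were -0.93 over 7 tunnel exit genes, -1.31 over 2 mRNA entry genes, -0.93 over 5 mRNA exit genes, -1.04 over 2 decoding genes and -1.22 over the 2 genes whose products are ubiquitinated when ribosomes collide, with each of these genes below 0. Of 18 genes mutated in human Diamond-Blackfan anaemia, 17 were below 0, with a median of -0.95. A similar median is a description of these libraries, and no difference between the roles was tested.

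In order to ask whether adding a guide against Meis2 to PRMK tumours altered the family, sgMeis2 and sgScramble libraries were compared. The members' share was 2.16%, 2.18% and 1.98% in sgMeis2 libraries 1 to 3, against 2.22%, 2.24% and 2.27% in sgScramble libraries 1 to 3. All 3 sgMeis2 libraries were below all 3 sgScramble libraries, by 0.14 percentage points in the mean and by 0.07 without sgMeis2 library 3. The median log2 fold change was -0.12 over 78 members, against 0.00 over all 16260 genes tested, and 54 of 78 (69.2%) were below 0, against 49.2% of all genes. Without sgMeis2 library 3 the median was -0.05 and 72 of 78 were below 0. The share of all genes below 0 without that library was not counted.

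By edgeR's quasi-likelihood test with Benjamini-Hochberg adjustment, 0 of 78 members were called, as were 0% of all genes, and the lowest adjusted p among members was 0.754. At an unadjusted p under 0.05 edgeR gave 0 members lower (against 2.47% of all genes) and 0 higher (against 2.20%). DESeq2 called 0 lower (against 0.117%) and 0 higher (against 0.0185%). The groups did not overlap for 15 members that were lower in all sgMeis2 libraries (19.2%, against 7.92% of all genes) and for 1 that was higher, Rpl10a (1.28%, against 8.12%). Without sgMeis2 library 3 the first count was 24 (30.8%), against 13.9% of all genes, and it was 32 (41.0%, against 14.5%) without sgMeis2 library 2 and 31 (39.7%, against 11.5%) without sgScramble library 1. With 1 library left out, edgeR and DESeq2 called 0 members in every case, and few genes of any kind: at most 46 of 16565 by edgeR and 72 of 13353 by DESeq2, both without sgMeis2 library 3.

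Among these 6 libraries, sgMeis2 library 3 held the members' largest deviations. Between any 2 of the other 5 libraries, the SD of the members' log2 ratios was 0.05 to 0.08, smaller than the 0.09 to 0.19 over other genes. Between sgMeis2 library 3 and any of them, it was 0.92 to 0.93, larger than the 0.53 to 0.55 over other genes. There 21 of 74 members (28.4%) deviated by 1 or more on the log2 scale, against 4.7% of 10188 other genes, while 0 members did so in any of the other 5 libraries. The median deviation in sgMeis2 library 3 was -0.39, with 43 members at their lowest and 24 at their highest in that library. Of other genes, 38.6% were at their lowest there and 43.5% at their highest. In all, 67 of 74 members and 82.1% of other genes were extreme in that library, so this was common to most genes.

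**Figure D4:**
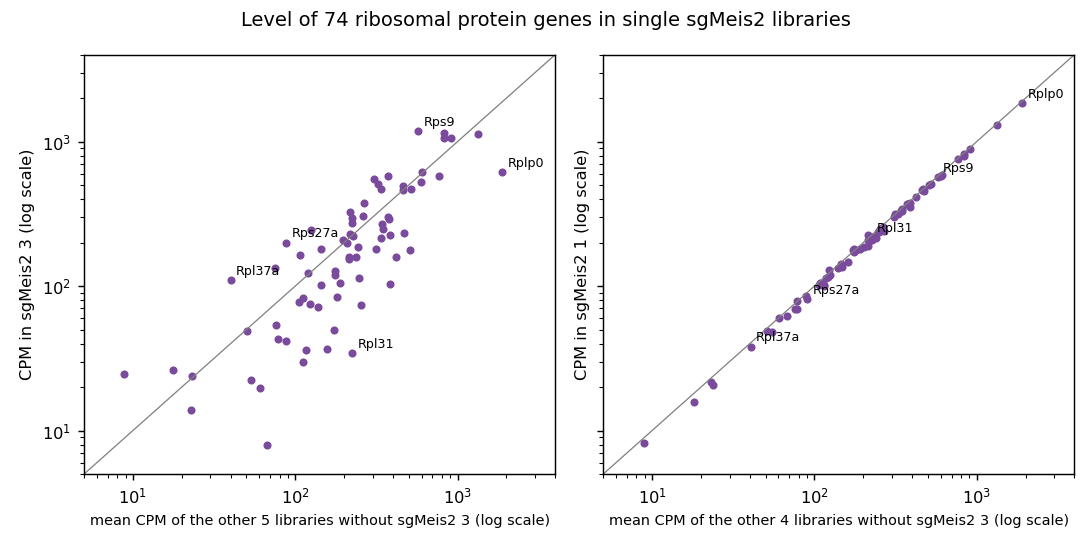
CPM of 74 ribosomal protein genes in sgMeis2 library 3 (left) and sgMeis2 library 1 (right), against their mean CPM in the other libraries (without sgMeis2 library 3), on log axes with a line of equality. Points scatter to both sides of the line in sgMeis2 library 3, with Rpl31 below it and Rpl37a above, and lie close to it in sgMeis2 library 1.

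The genes that were low in sgMeis2 library 3 came from both subunits. Rpl31 was at 219, 227 and 34.4 CPM in sgMeis2, against 222, 223 and 231 CPM in sgScramble (log2 fold change -0.49, SE 0.58). Here sgMeis2 libraries 1 and 2 lay near the sgScramble libraries and sgMeis2 library 3 lay far below. Rpl32, a large subunit gene often used as a reference transcript, was at 355, 373 and 104 CPM in sgMeis2, against 381, 402 and 397 CPM in sgScramble (log2 fold change -0.50, SE 0.42). Rps29 was at 99.8, 114 and 29.8 CPM in sgMeis2, against 107, 115 and 123 CPM in sgScramble (log2 fold change -0.50, SE 0.42). Rplp0 was at 1849, 1861 and 612 CPM in sgMeis2, against 1870, 1910 and 1956 CPM in sgScramble. In each of these genes sgMeis2 library 3 lay far below the other 5 libraries, and without it the log2 fold change was -0.019 for Rpl31, -0.12 for Rpl32, -0.11 for Rps29 and -0.048 for Rplp0.

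Others were high in the same library. Rpl37a, a zinc-binding large subunit protein, was at 38.0, 41.3 and 110 CPM in sgMeis2, against 38.7, 41.9 and 40.4 CPM in sgScramble (log2 fold change 0.64, SE 0.39). Rpl23a, a tunnel exit protein that docks the signal recognition particle, was at 8.23, 8.69 and 24.7 CPM in sgMeis2, against 6.81, 9.58 and 10.5 CPM in sgScramble (log2 fold change 0.62, SE 0.44). Rps27a was at 81.0, 91.5 and 200 CPM in sgMeis2, against 84.8, 92.5 and 91.3 CPM in sgScramble (log2 fold change 0.47, SE 0.32). Without sgMeis2 library 3 the log2 fold change was -0.028 for Rpl37a, -0.091 for Rpl23a and -0.056 for Rps27a. Rps9, a small subunit protein, was at 564, 549 and 1180 CPM in sgMeis2, against 575, 591 and 582 CPM in sgScramble. Rpl24 was low, with 15, 27 and 40 counts in sgMeis2 and 20, 18 and 30 in sgScramble (log2 fold change 0.46, SE 0.39).

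Other genes chosen for their role, and Rpl10a, were also compared. Rpl5 was at 237, 242 and 114 CPM in sgMeis2, against 248, 259 and 251 CPM in sgScramble. Rpl11 was at 187, 193 and 208 CPM in sgMeis2, against 196, 210 and 205 CPM in sgScramble. Rps4x was at 586, 608 and 620 CPM in sgMeis2, against 601, 606 and 617 CPM in sgScramble (log2 fold change -0.01, SE 0.08). Rps19 was at 344, 340 and 249 CPM in sgMeis2, against 332, 355 and 354 CPM in sgScramble. Rps6 was at 313, 320 and 506 CPM in sgMeis2, against 314, 334 and 334 CPM in sgScramble. Rpl10a, which forms a mobile stalk beside the site where tRNA leaves, was at 226, 221 and 229 CPM in sgMeis2, against 206, 216 and 217 CPM in sgScramble, and its log2 fold change was 0.08 (SE 0.07). Without sgMeis2 library 3 the log2 fold change was -0.081 for Rpl5, -0.11 for Rpl11 and -0.030 for Rps4x. It was then -0.026 for Rps19, -0.053 for Rps6 and 0.066 for Rpl10a.

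The genes that stood lowest in PRMK over PRM lay on both sides of 0 in this comparison. The log2 fold change in sgMeis2 over sgScramble was -0.40 for Rpl39, 0.25 for Rpl35a, 0.14 for Rpl26 and 0.07 for Rps2. Without sgMeis2 library 3 all 4 were below 0, at -0.11 for Rpl39, -0.12 for Rpl35a, -0.046 for Rpl26 and -0.074 for Rps2. With all libraries it was -0.11 for Rpl9, -0.20 for Rpl35, -0.13 for Rpsa, -0.14 for Rpl22 and -0.16 for Rpl10, and 0.09 for Rplp2 and -0.01 for Rplp1. Without sgMeis2 library 3 it was 0.033 for Rpl9 and -0.088 for Rplp2, on the other side of 0. Conversely, the genes named at the ends of the sgMeis2 order, apart from Rps29 (0.08), were below 0 in PRMK over PRM, with -1.01 for Rpl32, -0.99 for Rpl37a, -0.93 for Rpl23a and -0.40 for Rpl24. Outside the symbol rule, Rps3a1 stood at 595, 596 and 1254 CPM in sgMeis2, against 620, 606 and 623 CPM in sgScramble. Relative to the other members, Rpl31 (SD 0.98) and Rpl23a (SD 0.74) were among those that varied most over the 6 libraries.

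Other measures moved with sgMeis2 library 3. Mitochondrially encoded genes took 3.44%, 3.63% and 0.476% of counts in sgMeis2 libraries, against 3.58%, 3.66% and 3.60% in sgScramble libraries. Counts on 288 ribosomal protein pseudogenes, which are near copies that can share reads with the members, were 817, 825 and 632 per 1000 member counts in sgMeis2 libraries, against 830, 822 and 819 in sgScramble libraries. The ratio of large to small subunit counts was 1.32, 1.31 and 1.17 in sgMeis2, against 1.33, 1.31 and 1.32 in sgScramble. In all 3 measures sgMeis2 library 3 lay below every other library, and their part in the result was not tested. The 4 epithelial markers summed to 163, 158 and 142 CPM in sgMeis2, against 187, 195 and 202 CPM in sgScramble, a difference whose part was not tested either. The 5 immune markers summed to 3.59, 4.44 and 2.68 CPM in sgMeis2, against 2.85, 3.46 and 3.80 CPM in sgScramble. Fibroblast markers, 4 in all, summed to 3.01, 2.61 and 4.02 CPM in sgMeis2, against 3.77, 3.32 and 3.84 CPM in sgScramble. Both sums were near 0 and below those of every PRMK library. The pseudogene counts were almost as large as the member counts in this table, so the split of reads between a member and its copies is uncertain. PRMK and PRM libraries had 79.5 to 94.5 pseudogene counts per 1000 member counts, but over only 6 pseudogenes in their table. That lower ratio does not show fewer shared reads. The split is thus uncertain for members there too, such as Rpl35 and Rpl38, whose levels were low. The 14 other TOP mRNAs had a median log2 fold change of 0.00 in sgMeis2 over sgScramble, with 8 below 0, and the 15 mitochondrially encoded genes tested had -0.52, with 14 below 0.

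Chromatin at the starts of the members was compared in the deposited peak lists, which the authors called per library, with 2 libraries a group. A start counted as marked when a peak lay within 1 kb in both libraries. CUT&Tag, an assay in which an antibody directs cleavage around the bound protein, was used for H3K4me3, H3K4me2, H3K4me1 and KMT2C. H3K4me3, the histone mark of active promoters, lay at 57 of 61 member starts in PRMK (93.4%, against 81.1% of all genes with a start) and at 57 of 61 in PRM (against 80.9%). Of other genes of at least 100 CPM, 98.4% were marked in PRMK and 98.1% in PRM. The 4 members without such a peak in both libraries were the paralogs Rpl10l, Rpl32l, Rpl39l and Rpl3l, in both groups. The peaks at members had median widths of 6629 and 6781 bp in PRMK libraries, against 4694 and 7612 bp in PRM libraries. Peaks at all other genes were narrower, with 4158 and 4073 bp in PRMK and 3804 and 3956 bp in PRM. Widths at other genes of at least 100 CPM were not compared. H3K4me1, which marks enhancers and is deposited by KMT2C and KMT2D, lay at 4 member starts in PRMK (6.56%, against 12.7% of other genes) and 5 in PRM (8.20%, against 14.2%). H3K4me2, found at promoters and enhancers, lay at 57 member starts in each group (93.4%, against 85.1% of other genes in PRMK and 77.6% in PRM).

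Peaks called for KMT2C lay at 53 of 61 member starts in PRMK (86.9%, against 68.4% of all genes). They lay at 27 of 61 in PRM (44.3%, against 31.0% of all genes). The PRMK chromatin samples list a guide against Kmt2c, and whether their peaks mark the KMT2C protein was not tested. Other genes of at least 100 CPM had a peak in 88.8% and 52.1%, close to the members. The PRMK libraries had 187682 and 134561 KMT2C peaks, against 9949 and 16681 in PRM libraries, so the number of peaks called moved with the result, and its part was not tested. For H3K4me2, H3K4me3 and KMT2C, PRMK replicate 1 is labelled with sgMeis2 and replicate 2 with sgScramble, so each of those pairs mixes both guides. In open chromatin by ATAC, 46 members (75.4%) were marked in both PRM libraries, against 46.6% of other genes and 72.7% of other genes of at least 100 CPM. In PRMK, library 2 marked 49 of 61 members and library 1 only 1, with 593 peaks in all.

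**Figure D5:**
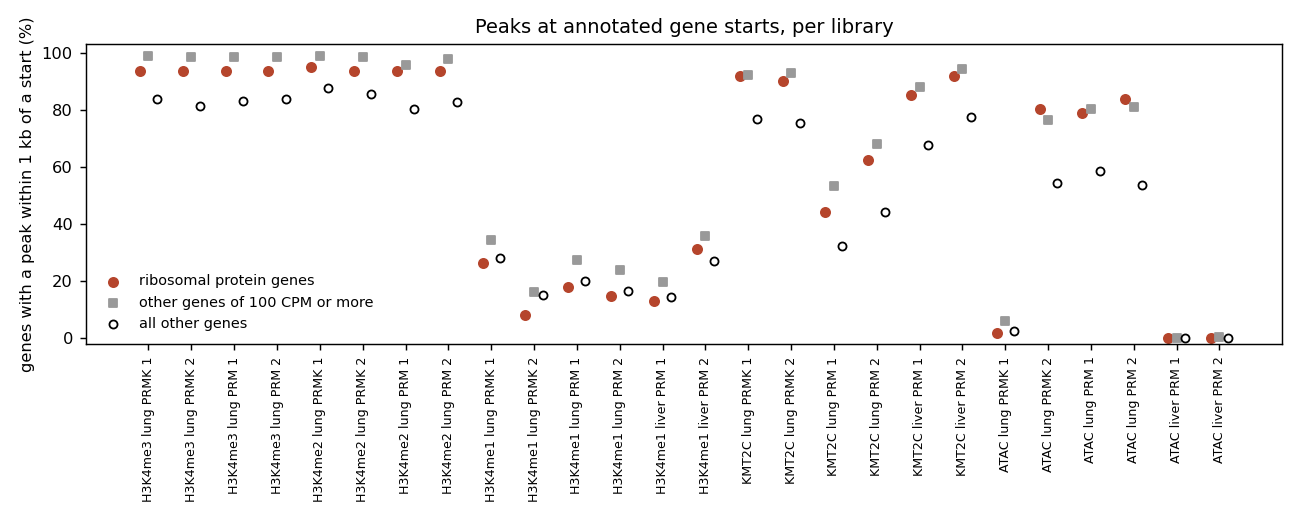
Percentage of genes with a peak within 1 kb of an annotated start in each peak library, for 61 ribosomal protein genes (filled circles), other genes of at least 100 CPM (grey squares) and all other genes (open circles). H3K4me3 and H3K4me2 lie at 93.4% of ribosomal protein genes or more in each library, and the percentage with KMT2C peaks is lower in PRM lung than in PRMK lung for all 3 sets.

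Promoter sequence is shown for Rpl26 and Rpl31, which differ in fold change and both had H3K4me3 peaks. RefSeq bases on GRCm38.p6 from 240 before to 20 after the start are printed, and capitals mark the motifs found.
Rpl26, chr11:68901326-68901585, plus strand: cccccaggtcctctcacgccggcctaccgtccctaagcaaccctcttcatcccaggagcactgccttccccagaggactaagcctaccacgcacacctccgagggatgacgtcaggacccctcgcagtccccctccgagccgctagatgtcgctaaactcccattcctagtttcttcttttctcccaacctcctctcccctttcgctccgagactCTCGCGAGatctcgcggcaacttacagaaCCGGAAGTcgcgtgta
Rpl31, chr1:39367611-39367870, plus strand: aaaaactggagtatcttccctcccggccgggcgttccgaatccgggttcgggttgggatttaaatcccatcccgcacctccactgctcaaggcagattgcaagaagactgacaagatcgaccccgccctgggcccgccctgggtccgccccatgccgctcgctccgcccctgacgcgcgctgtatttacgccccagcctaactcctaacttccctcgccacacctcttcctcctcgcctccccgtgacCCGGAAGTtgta
The motif CCGGAAGT, of the kind that ETS factors bind, was sought on both strands of the 300 bases around each start. It lay at 12 of 73 member starts (16.4%), against 3.89% of all starts and 7.47% of starts of other genes that passed the filter. The palindrome CTCGCGAG lay at 8 member starts (11.0%), against 0.919% of all starts and 1.68% of starts of other genes that passed the filter, and in Rpl26 it is the first of the motifs in capitals. The letters AAGATGG, of the kind that YY1 binds, lay at 15.1% of member starts and 6.34% of all starts. The E-box CACGTG, which Myc can bind, lay at 11.0% of member starts and 7.15% of all starts. TATAAA lay at 9.59% and 13.6%, and CGCATGCG, of the kind that NRF1 binds, at 4.11% and 1.87%. At starts of other genes that passed the filter, the shares were 6.6% for AAGATGG, 9.6% for CACGTG, 7.03% for TATAAA and 3.54% for CGCATGCG. Against those genes, TATAAA was thus more frequent at member starts, and CACGTG and CGCATGCG were close. No motif of this list contains another, a match describes the letters only, and no binding of these factors was measured.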

How the data were processed

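RNA was compared in lung tumours of 3 PRMK and 3 PRM libraries, and of 3 sgMeis2 and 3 sgScramble libraries, in 2 tables fitted separately. The values are raw counts per gene as deposited by the authors. Reads were aligned with STAR 2.6.0a and Bowtie2 2.2.1, SEACR and DESeq2 were used, and the builds were GRCm38 and mm10, per the submitters' processing notes. The log2 fold changes and p-values in the same tables are the authors' deposited values, and only their adjusted p-values were counted here. CUT&Tag peaks carry a signal value and ATAC peaks a score, as deposited by the authors for each library. The handling of strand and of reads shared by near-identical copies is not stated in the sources used here.

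Genes were filtered with filterByExpr and tested with edgeR 4.0.16 (TMM, quasi-likelihood test, Benjamini-Hochberg adjustment over all genes tested, threshold 0.05). DESeq2 1.42.0, other scalings, no filter, leaving out each library and a replicate block were alternatives. R 4.3.3, limma 3.58.1, Python 3.11.15, pandas 2.3.3 and numpy 2.4.6 were used. Of the genes measured in sgMeis2 and sgScramble libraries, 24781 had no symbol, and 24464 of those were named by gene identifier. A peak counted when it overlapped a window of 1000 bp on either side of an annotated start. The 288 pseudogenes were found by symbol. The tests were tried on simulated counts with known changes.

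The members, the gene lists and the tests were chosen with earlier results of these data known. The motifs CTCGCGAG and CGCATGCG were shortened to 8 bases after longer forms had been counted. Genes named with values are those with the 4 largest and 4 smallest fold changes in each comparison, those chosen by role, restricted paralogs, ribosomal genes outside the symbol rule, members on a chromosome that stood apart in 1 library and members that varied most relative to the others. A further group, the most abundant members per length, could not be formed because no gene lengths were used. Some genes that these rules name are not reported here. The deposited columns of PRM carry other numbers than the sample titles, so they were tied to the group only. Intervals and limits for counts of 0 cover counting error only.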

Additional observations from a re-analysis of the deposited data

How the results depend on the processing

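Directions held under most settings for PRMK versus PRM, and calls did not. DESeq2 called 23 members against 0 by edgeR. Leaving out each library in turn, edgeR called 0 to 6 members, the 6 without PRM library 4 (7.59%, against 5.59% of all genes). DESeq2 called 1, 8 and 3 members without PRMK libraries 1 to 3 (all genes 215, 498 and 352), and 50, 40 and 43 without PRM libraries 4 to 6 (all genes 4060, 1449 and 2165); these settings, and the counts without overlap, were chosen after seeing the data. The cause was not tested. Scaling to the summed member counts, which removes a shift common to the family, gave a member median of -0.038 while that of all genes moved to 0.82. Since it centres the members near 0, members fall on both sides by construction and a change of sign shows nothing more. The named members above 0 under it were Rpl9 (0.66), Rpl31 (0.69), Rpl35 (0.81), Rplp0 (0.29), Rplp1 (0.19), Rplp2 (0.15), Rpl11 (0.25), Rpsa (0.17), Rpl22 (0.33) and Rpl10 (0.20). Scaling by library totals reversed Rpl35 (0.071). Leaving out 1 library, edgeR values ran from -0.40 to 0.13 for Rpl9, -0.38 to 0.044 for Rpl31, -0.14 to 0.013 for Rpl35 and -0.28 to 0.86 for Rps29. DESeq2 reversed Rpl35 (0.035 without PRMK library 1, 0.033 without PRM library 4), Rpl31 (0.080 without PRM library 4), Rpl9 (0.10 without PRM library 5) and Rps29 (-0.12 without PRM library 5, -0.27 without PRM library 6).

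For sgMeis2 versus sgScramble, leaving out 1 library gave -0.056 to 0.71 for Rps27a, -0.091 to 0.90 for Rpl23a and -0.028 to 0.91 for Rpl37a, each lowest without sgMeis2 library 3, where DESeq2 gave -0.053, -0.087 and -0.025. The count of members lower without overlap ran from 15 to 32, while the share of all genes ran from 7.92% to 14.5%. With a replicate block the median was -0.14 and 0 members were called. Deviations of same-numbered libraries from their group means had an r of -0.01 to 0.03. These values cannot tell whether the numbers pair libraries, since sgMeis2 library 3 weighs on every deviation within its group. Taking the upper 0.5 of KMT2C peaks by signal in PRM left 11 members with a peak, against 27. Of the other values, 201 under left-out libraries and 104 under other settings kept direction and side of the threshold in PRMK versus PRM, and 90 and 56 in sgMeis2 versus sgScramble.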

Other observations

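The genes outside the family whose log2 CPM followed its mean most closely over the 6 PRMK and PRM libraries were the pseudogenes Rps6-ps4 (Pearson r 0.999), Gm10051 (0.997) and Rpl17-ps10 (0.994), with Kdm5a (0.993) and Eef1b2 (0.991), among 5191 candidates. Pseudogenes can share reads with members, and the 6 libraries share a group structure and PRM library 6, so these values are a description. Over the sgMeis2 and sgScramble libraries the closest were Mrpl20 (0.999), Cuedc2, Sephs1 and Psma2 (0.998 each) and Lamp1 (0.997), among 5132 candidates.

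The deviations of 73 members in PRM library 6 and in sgMeis2 library 3 had a Pearson r of 0.281 and a Spearman rho of 0.282 across genes, which are not independent replicates. In PRM samples labelled liver, KMT2C peaks lay at 51 of 61 member starts (83.6%, against 65.2% of other genes), from lists of 65201 and 113129 peaks. The lung PRM lists had 9949 and 16681 peaks. The 10 members without a KMT2C peak in both liver libraries included Rpl5, Rpl9 and Rps4x.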
